A study of Homo sapiens with 6 samples.

Results

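The 10 genes described here encode keratins of simple and squamous epithelium: KRT5, KRT6A, KRT7, KRT8, KRT16, KRT17, KRT18, KRT19, KRT80 and KRT81. They were found by symbol, each in 1 row, among the 19912 rows of the mRNA table, which holds 55 keratin genes in all. RNA came from 6 samples labelled as a gemcitabine-resistant form of PANC-1, an established human line grown from a carcinoma of the pancreatic duct. Of these, 3 are labelled control (ctrl) and 3 carry shSRSF3, a short hairpin RNA against the splicing factor gene SRSF3. Both groups share the resistant phenotype, and the sensitive parent line is not analysed here. The labels name neither the hairpin's sequence, clones, culture dates nor the origin of the replicates, so a p-value here is set against a spread among libraries that may be purely technical.

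Keratins are the intermediate filament proteins of epithelial cells. An acidic type I keratin (here KRT16, KRT17, KRT18 and KRT19) pairs with a basic or neutral type II keratin (here KRT5, KRT6A, KRT7, KRT8, KRT80 and KRT81), and only such pairs build filaments. KRT8 and KRT18 are the pair of simple, single-layered epithelia, while KRT7 and KRT19 are well known in pancreatic ducts. KRT5 belongs to the basal layer of stratified epithelium, KRT6A, KRT16 and KRT17 are induced in stressed or wounded squamous epithelium, and KRT81 is a hair keratin.

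Values are deposited FPKM, fragments scaled to the length of the gene and to the total of the library. Whole fragment numbers could be recovered from them for all 10 genes, with library totals between 24558238 and 27351642 fragments. SRSF3 stood at 37.0, 39.6 and 39.2 FPKM in controls 1 to 3, beside 36.9, 37.1 and 38.6 FPKM in the 3 libraries labelled knockdown. No fall was detected (log2 change -0.04, SE 0.05, limma adjusted p = 0.612), so "knockdown" below is the label of the libraries. Knockdown library 1 stands apart: its 13 mitochondrial mRNAs summed to 108068 FPKM, against 70369 to 84716 FPKM in the other libraries. The changes of the 5 tested keratins and of their sums are given with and without it. Knockdown libraries also differed more among themselves than controls did. The mean chi-square per gene of fragment numbers, given the library totals, was 11.2 to 33.3 between knockdown libraries and 3.31 to 6.95 between controls. Knockdown libraries 2 and 3 gave 11.2. The limma fit takes a common spread for both groups.

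Epithelial markers were well expressed in every library, except that KRT7 was near 0 and MUC1 was low. Vimentin was near 0 too. KRT7, MUC1 and vimentin are all familiar from this line or from ducts. EPCAM, a surface protein of epithelia, ran from 154 to 181 FPKM, the adhesion gene CDH1 from 71.4 to 83.5 FPKM, and the ductal factor SOX9 from 109 to 123.1 FPKM. Of 8 ductal markers, KRT7 and the mucin gene MUC1 were under 1 FPKM in every library, with MUC1 at 0.443 to 0.828 FPKM. All 4 markers of a mesenchymal state were also under 1 FPKM. Among them was vimentin (VIM), widely reported as abundant in PANC-1, at 0.00709 to 0.0389 FPKM. The identity of the line therefore rests on its label alone and is in doubt. The markers of other cells were near 0. The acinar list summed to at most 0.751 FPKM, the endocrine list to 0.0966, the fibroblast list to 0.405 and the endothelial list to 0.277. Of the 5 leukocyte markers PTPRC and LYZ were at 0, and CD14 alone passed 1 FPKM, with 2.42 to 2.80.

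The 10 keratins fell into abundant, moderate and almost silent genes, in the same order of tiers in both groups. KRT8 and KRT18 ranked between 14 and 18 of all rows of the mRNA table in every library, and KRT19 between 44 and 51. KRT80 ranked between 1284 and 1495 and KRT17 between 1994 and 2339. The best rank of the remaining 5 was 10619, that of KRT5. KRT8, KRT18 and KRT19 together made up 98.5% to 98.7% of the summed FPKM of the 10 genes in each library.

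**Figure D1:**
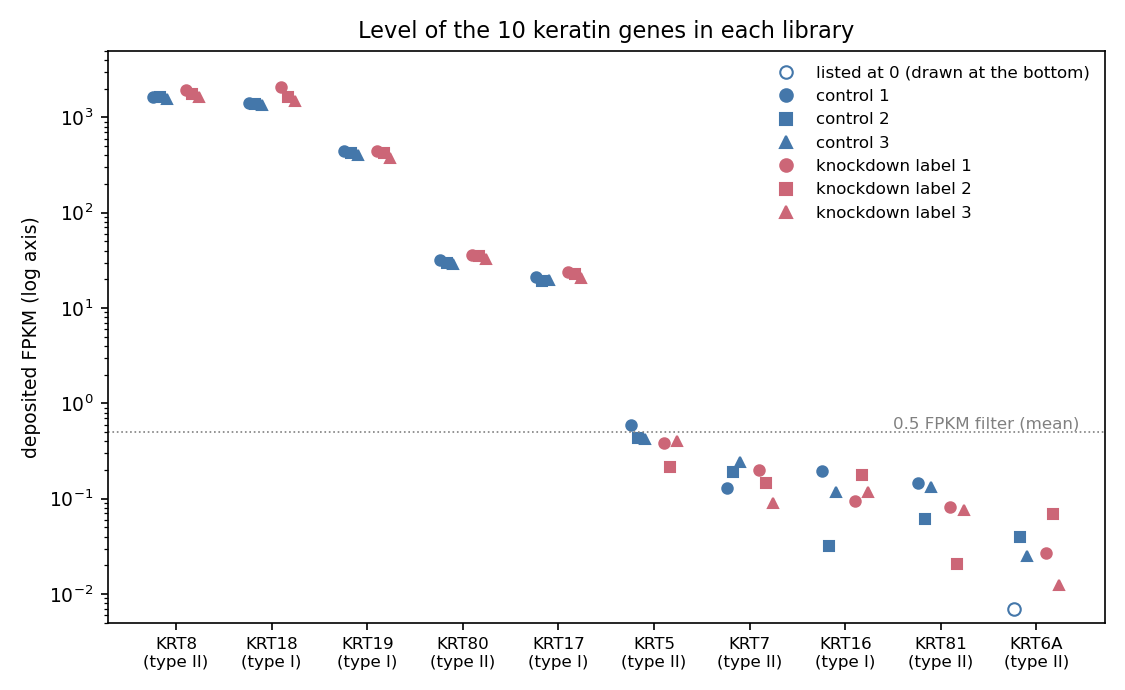
Deposited FPKM on a log axis for each of the 10 keratin genes, ordered by control mean; each point is 1 library (3 control, 3 labelled knockdown), and the open circle is the library listed at 0. KRT8, KRT18 and KRT19 lie at or above 378 FPKM, KRT80 and KRT17 between 19.3 and 35.8 FPKM, and the other 5 genes at or below 0.598 FPKM.

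Among neighbours in this order, the ranges of KRT8 and KRT18 did not overlap in controls, where KRT8 was the higher in all 3 libraries. They overlapped in the knockdown group, where KRT8 was the higher in 2 of 3. From KRT18 down to KRT7 every step was larger than the spread in both groups. The largest step lay between KRT17 and KRT5, whose control means differed 41.2-fold. KRT7 and KRT16 overlapped in both groups, KRT16 and KRT81 in controls, and KRT81 and KRT6A in the knockdown group. These levels depend on the gene length behind each FPKM, recovered as 6881 bp for KRT8, 3218 bp for KRT18 and 2336 bp for KRT19. In fragments, KRT18 stood at 0.402 to 0.405 of KRT8 in controls.

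Across the mRNA table, 10823 rows whose mean reached 0.5 FPKM were compared between the groups with limma on log2(FPKM + 1), at a Benjamini-Hochberg adjusted p of 0.05. Of the 10 keratins, 5 passed this filter: KRT8, KRT17, KRT18, KRT19 and KRT80. Among these 5, KRT80 passed the threshold as higher in the knockdown group, against 10.9% of all tested rows, and 0 passed as lower, against 5.91% (16.8% in either direction). At an unadjusted p under 0.05, 3 of the 5 were higher and 0 lower, where 33.0% of all rows lay under it in either direction. Groups did not overlap for KRT18 and KRT80, both higher, against 37.9% of all tested rows in either direction and 22.6% higher. The median log2 change of the 5 was 0.17, beside 0.02 for all tested rows. With 5 genes, these counts do not set the keratins apart from the table. In bulk RNA, a change in the share of cells that express a gene and a change in RNA per cell cannot be told apart.

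KRT8, the type II keratin of simple epithelium, was the most abundant of the 10 genes in controls. Controls 1 to 3 held 1652, 1625 and 1561 FPKM, and knockdown libraries 1 to 3 held 1919, 1742 and 1620.0 FPKM. The groups overlapped, since knockdown library 3 lay among the controls. Means were 1613 ± 46.8 and 1760.4 ± 150.2 FPKM (SD, n = 3). The log2 change was 0.12 (SE 0.09, 95% interval -0.07 to 0.32, limma adjusted p = 0.361). Without knockdown library 1 it was 0.06, and with quantile normalization it was -0.0033. That method gives equal ranks equal values, so ranks of 14 to 16 in every library left KRT8 little room to differ. KRT8 took between 279184 and 338270 fragments a library, so counting error is far below the spread between libraries.

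KRT18, the type I partner of KRT8, had the largest difference of the 5 tested keratins. Control libraries 1 to 3 held 1429.7, 1398 and 1345 FPKM, and knockdown libraries 1 to 3 held 2067, 1631 and 1501 FPKM. All 3 knockdown libraries lay above all controls, and library 1 lay far above the other two. Means were 1391 ± 42.8 and 1733 ± 296 FPKM (SD, n = 3), a ratio of 1.25. The change did not pass the threshold (log2 0.30, SE 0.11, 95% interval 0.05 to 0.56, limma adjusted p = 0.0923). Without knockdown library 1 the log2 change was 0.17 (adjusted p = 0.0935). Without knockdown library 3 it was 0.40 and passed (adjusted p = 0.0190), and limma voom on the recovered fragment numbers also passed (log2 0.30, adjusted p = 0.0410). With quantile normalization it was 0.04 (adjusted p = 0.736). As for KRT8, ranks of 14 to 18 in every library left KRT18 little room to differ under that method. KRT18 ranked 16 in every control library, and 14, 17 and 18 in knockdown libraries 1 to 3. In knockdown libraries 2 and 3 its rank was thus lower than in controls, although its FPKM was higher. Whether rows of like level rose with KRT18 was not tested. The mitochondrial mRNAs were highest in the same library as KRT18, and their part in this difference was not tested.

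KRT19, the smallest type I keratin, known from ducts, had nearly the same level in both groups. Controls held 444, 428 and 401 FPKM and knockdown libraries 444, 422 and 378 FPKM, so the groups overlapped almost fully. Means were 424 ± 21.5 and 415 ± 34.1 FPKM (SD, n = 3). The log2 change was -0.03 (SE 0.07, 95% interval -0.20 to 0.13, limma adjusted p = 0.782), an interval that includes changes of either sign. Without knockdown library 1 it was -0.09 (adjusted p = 0.398).

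Because type I and type II keratins pair, their balance within a library was also computed. The ratio was chosen with the values in view and is given as a description. The ratio of KRT18 to KRT8 was 0.865, 0.860 and 0.862 in controls 1 to 3, whereas knockdown libraries 1 to 3 gave 1.08, 0.936 and 0.927. The SD among controls was 0.00255, and every knockdown library lay above them. A ratio within a library does not depend on its total. The mean log2 ratio was 0.18 higher in the knockdown group, and 0.11 higher without knockdown library 1, with both remaining knockdown libraries still above the controls. An exact two-sided permutation test gave p = 0.1, the smallest that 3 against 3 allows, and could not have gone under 0.05. Since the ratio was chosen with its values in view, that p was known in advance and decides nothing.

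**Figure D2:**
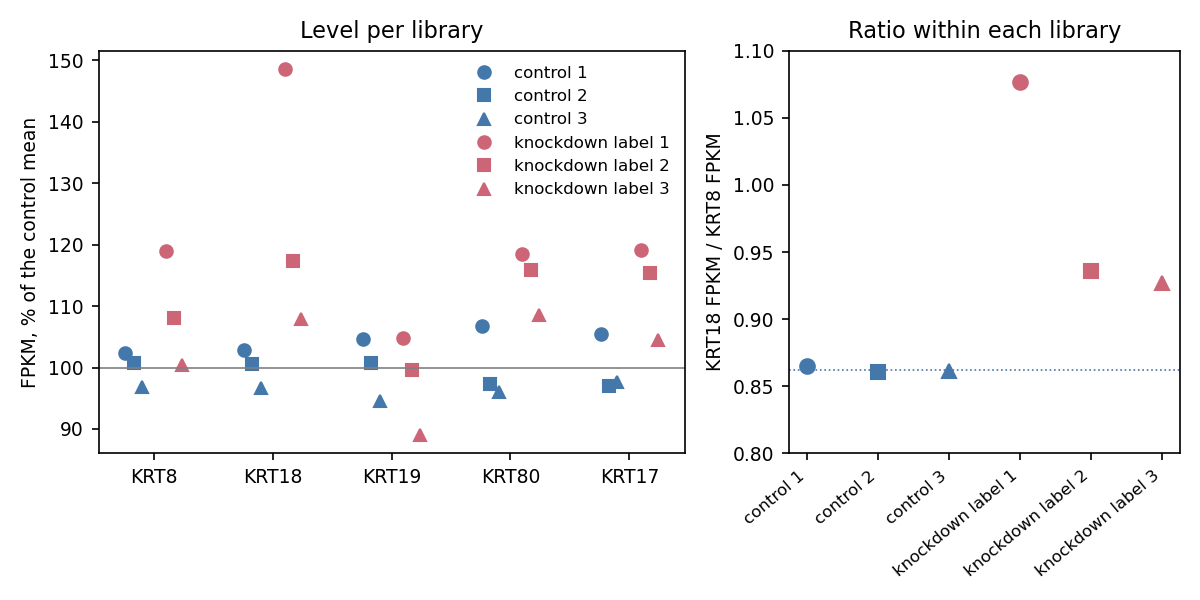
Left, FPKM of the 5 tested keratins in each library as a percentage of the gene's control mean; right, the ratio of KRT18 to KRT8 FPKM in each library, with the control mean dotted and an axis that starts at 0.8. Controls sit between 0.860 and 0.865, and the libraries labelled knockdown between 0.927 and 1.08, with library 1 highest for all 5 genes on the left.

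Relative to KRT8 and KRT18, KRT19 was lower in all 3 knockdown libraries, again a comparison chosen after seeing the values, here not tested. The ratio of KRT19 to KRT8 was 0.269, 0.263 and 0.257 in controls and 0.232, 0.242 and 0.233 in the knockdown group. KRT18 made up 75.5% to 76.2% of the summed type I FPKM of the 10 genes in controls and 78.5% to 81.5% in the knockdown group. KRT19 made up 22.7% to 23.4% and 17.5% to 20.3%. Summed over the 4 type I genes, levels were 1835 ± 64.9 and 2171 ± 328 FPKM (SD, n = 3). The lowest knockdown library, library 3, lay at 1900.0 FPKM, just above control library 1 at 1895. Over the 6 type II genes they were 1644 ± 48.3 and 1796 ± 152 FPKM, where the groups overlapped. Without knockdown library 1, the log2 difference of the type I sum went from 0.23 to 0.11 and that of the type II sum from 0.12 to 0.06. The 10 genes held 1.22% to 1.25% of the table's summed FPKM in controls and 1.24% to 1.33% in the knockdown group. These ranges overlapped. The summed FPKM of the mRNA table was itself higher in every knockdown library (287148 to 336887) than in every control (275359 to 285701). No fit was scaled to this sum, so whether the keratin differences go beyond it was not tested.

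KRT80, a type II keratin found in many epithelia and linked to desmosomes, was the 1 member past the threshold. Control libraries held 32.3, 29.4 and 29.0 FPKM and knockdown libraries 35.8, 35.02 and 32.8 FPKM. The groups did not overlap, though knockdown library 3 lay close above control library 1. KRT80 rose from 30.2 ± 1.80 to 34.5 ± 1.56 FPKM (SD, n = 3), by 14.3% or 0.19 on the log2 scale (SE 0.06, limma adjusted p = 0.0477). Leaving out control library 2 gave an adjusted p of 0.180, control library 3 gave 0.183, knockdown library 1 gave 0.0928 and knockdown library 2 gave 0.131, so each of these 4 ended the call. It was also lost with no filter (0.0949), median scaling (0.0593) and quantile normalization (0.144). Its log2 change ran from 0.11 to 0.23 over these and the remaining alternatives, always higher in the knockdown group. Without knockdown library 1 that change was 0.16. Each library held between 3267 and 3988 fragments of KRT80.

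KRT17, a type I keratin of basal and stressed epithelium that is often raised in carcinomas, stood at a moderate level. Controls held 21.0, 19.3 and 19.5 FPKM and knockdown libraries 23.8, 23.00 and 20.8 FPKM. The groups overlapped by 1 library, since knockdown library 3 lay just under control library 1. Means were 19.9 ± 0.931 and 22.5 ± 1.52 FPKM (SD, n = 3). The log2 change of 0.17 (SE 0.06, 95% interval 0.03 to 0.30) did not pass (limma adjusted p = 0.0816), and it passed without knockdown library 3 (log2 0.22, adjusted p = 0.0174). It did not pass in the other 5 fits with 1 library left out (adjusted p 0.0878 to 0.254), among them that without knockdown library 1 (log2 0.13, adjusted p = 0.175). With quantile normalization the log2 change was 0.11 (adjusted p = 0.168).

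**Figure D3:**
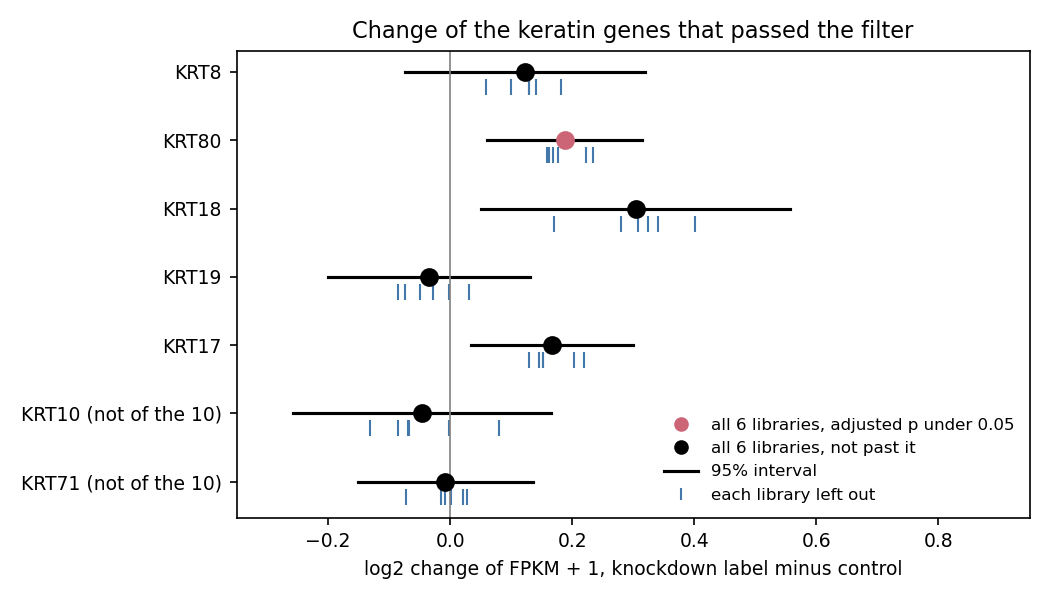
Log2 change of FPKM + 1, libraries labelled knockdown minus control, for the 5 tested keratins of the 10 and for KRT10 and KRT71; dots are fits with all 6 libraries, lines their 95% intervals, and ticks the fits with 1 library left out. KRT80 alone passed the threshold at 0.19, KRT18 had the largest value at 0.30, and KRT19 lay at -0.03.

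The other 5 keratins were close to silent. KRT7, the type II keratin usual in pancreatic ducts, had 13, 20 and 27 fragments in the controls, beside 21, 15 and 10 in the knockdown libraries. Its level was 0.187 ± 0.056 and 0.146 ± 0.055 FPKM (SD, n = 3), far below that of its ductal companion KRT19. The antisense row KRT7-AS was listed at 0 in 4 of the 6 libraries. Without knowledge of how strand was used in counting, reads of KRT7 and KRT7-AS cannot be told apart.

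KRT5, the basal-cell keratin, was the highest of the 5, with 63, 47 and 50 fragments in controls and 42, 23 and 47 in the knockdown group. These are 0.598, 0.428 and 0.426 FPKM against 0.382, 0.215 and 0.401 FPKM, so all knockdown libraries lay below all controls. KRT5 did not pass the filter, and an exact two-sided permutation test gave p = 0.1, the smallest that 3 against 3 allows. When every row above 0 was tested, its limma adjusted p was 0.235.

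The stress keratins KRT6A and KRT16 were barely detected. KRT6A, a type II keratin, had 0, 3 and 2 fragments in controls and 2, 5 and 1 in the knockdown group. The 0 in control library 1 allows up to 3 fragments, or 0.0417 FPKM. KRT16, its usual type I partner, had 12, 2 and 8 fragments in controls and 6, 11 and 8 in the knockdown group. The hair keratin KRT81 had 7, 3 and 7 fragments in controls and 4, 1 and 4 in the knockdown group. Groups overlapped for KRT6A, KRT7, KRT16 and KRT81, whose exact two-sided permutation p ran from 0.3 to 0.9, and at these depths moderate differences were not detectable. Limits from fragment numbers cover counting error only. The 5 near-silent genes together reached 0.922 ± 0.161 FPKM in controls, beside 0.704 ± 0.077 FPKM in the knockdown group, and the groups overlapped.

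Some of these genes have close copies that can share reads. KRT8 and KRT18 have many processed pseudogenes, KRT6A is nearly identical to KRT6B and KRT6C, and KRT81 is nearly identical to KRT86. In a RefSeq gene table of GRCh38.p14, KRT8 and KRT18 are neighbours whose records overlap, as do KRT81 and KRT86. The same table places 7 of the 10 genes on chromosome 12 and 3 on chromosome 17. KRT18 is the type I gene among the 7. The split of reads between such genes is uncertain, because the rule for reads in overlaps was not stated in the labels.

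Of the 45 other keratin genes of the table, 20 were at 0 in all 6 libraries, 23 lay above 0 with a mean under 0.5 FPKM, and 2 were tested. KRT10, a type I keratin of differentiating epidermis, stood at 13.7 ± 0.783 FPKM in controls and 13.3 ± 2.13 FPKM in the knockdown group (SD, n = 3; limma adjusted p = 0.770). KRT71, a type II keratin of the hair follicle's inner root sheath, stood at 5.72 ± 0.080 and 5.70 ± 0.526 FPKM (limma adjusted p = 0.948). KRT71 was thus above KRT5, KRT6A, KRT7, KRT16 and KRT81 in every library. KRT14, the usual partner of KRT5, had 0 to 4 fragments per library, and KRT86 had 12 to 17. KRT83 had 4, 3 and 6 fragments in controls and 0, 1 and 0 in the knockdown group. When every row above 0 was tested, KRT83 passed as lower on these few fragments (limma adjusted p = 0.0367).

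Other intermediate filament genes were mostly silent as well, with 4 of 15 past the filter. The nuclear lamin gene LMNA rose from 149 ± 6.70 to 176 ± 16.5 FPKM (log2 0.24, limma adjusted p = 0.0466) and LMNB2 fell from 95.6 ± 3.05 to 85.0 ± 2.53 FPKM (by 0.17 on the log2 scale, limma adjusted p = 0.0454). Both calls were lost in 5 of 6 fits with 1 library left out, those without control libraries 1, 2 and 3 and knockdown libraries 1 and 2, with adjusted p up to 0.180 and 0.194. LMNB1 and BFSP1 did not pass (limma adjusted p = 0.123 and 0.174), though LMNB1 passed as lower with quantile normalization (log2 -0.22, adjusted p = 0.0304). With no filter the calls of LMNA and LMNB2 were lost as well (0.119 and 0.0636). That of LMNA was also lost with median scaling (0.0562) and quantile normalization (0.0733). LMNA was highest in knockdown library 1, as the 5 tested keratins were.

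Genes whose products anchor keratin filaments or take part in their assembly were compared as a list of 24, of which 22 were tested, 4 fell and 1 rose, where 5.91% of all tested rows were lower and 10.9% higher. Their median log2 change was -0.02, beside 0.02 for all tested rows. The desmosomal cadherin genes DSC2 and DSG2 fell from 1.97 ± 0.107 to 1.45 ± 0.038 FPKM and from 33.5 ± 1.99 to 28.6 ± 1.59 FPKM (limma adjusted p = 0.0146 and 0.0299). The plakin genes EPPK1 and PPL, whose proteins bind keratin filaments, fell from 9.41 ± 0.922 to 7.57 ± 0.305 FPKM and from 37.7 ± 1.52 to 32.8 ± 1.74 FPKM (limma adjusted p = 0.0228 and 0.0364). STUB1, a ubiquitin ligase named here because it was the 1 rise, went from 47.9 ± 3.02 to 56.1 ± 3.62 FPKM (limma adjusted p = 0.0378). With 1 library left out, the DSC2 call was lost in 2 of 6 fits (without control libraries 2 and 3, adjusted p up to 0.0756) and the EPPK1 call in 3 (without control libraries 1 and 2 and knockdown library 2, up to 0.0766). The DSG2 call was lost in 4 (without control libraries 2 and 3 and knockdown libraries 1 and 2, up to 0.125). The PPL and STUB1 calls were lost in 5, with only the fit without knockdown library 1 keeping them (up to 0.131 and 0.160). With no filter the calls of DSG2, EPPK1, PPL and STUB1 were lost (0.0724 to 0.0959), and that of STUB1 with quantile normalization (0.194).

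Squamous differentiation genes went both ways, with 8 of 26 tested, 3 higher and 2 lower (10.9% and 5.91% of all tested rows), and a median log2 change of 0.10. SPRR2D, of the cornified envelope, rose from 12.2 ± 1.33 to 17.6 ± 1.68 FPKM (log2 0.49, limma adjusted p = 0.00475), and SERPINB5 (maspin) from 6.17 ± 0.087 to 7.87 ± 0.615 FPKM (log2 0.30, limma adjusted p = 0.00957). SPRR3, given because it completes the count, rose by 0.33 (log2, limma adjusted p = 0.0352), a call kept in 1 of 6 fits with 1 library left out, the one without knockdown library 1 (up to 0.138 in the others). KLK7, a protease that cleaves corneodesmosomes, fell from 3.84 ± 0.065 to 2.65 ± 0.444 FPKM (limma adjusted p = 0.00987). The calcium-binding protein gene S100A2 fell from 3.50 ± 0.524 to 2.45 ± 0.126 FPKM (limma adjusted p = 0.0142), a call lost without knockdown library 2 (0.0579). With no filter the calls of KLK7 (0.0533), S100A2 (0.0641) and SPRR3 (0.120) were lost, and that of SPRR3 with limma voom (0.0641).

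A list of possible keratin gene regulators was drawn up here, among them the splicing regulators ESRP1 and ESRP2. Of 31 tested, 8 were higher and 2 lower (10.9% and 5.91% of all tested rows), with a median log2 change of 0.0001. The epithelial ETS factor ELF3 fell from 2.76 ± 0.116 to 1.36 ± 0.104 FPKM (by 0.67 on the log2 scale, limma adjusted p = 0.000199). ESRP1, an epithelial splicing regulator that completes the falls, fell by 0.29 (log2, limma adjusted p = 0.043), a call kept only without control library 1 among the 6 such fits (up to 0.167), and lost with no filter (0.125) and quantile normalization (0.0691). FOSL1 and JUN, members of AP-1, which binds keratin gene enhancers, and MYC rose, as did ESRP2, RARA, RARG, SNAI1 and VDR, listed to complete the count. SNAI1 was near the filter, at 0.661 ± 0.176 FPKM in controls and 1.31 ± 0.268 FPKM in the knockdown group, with 19 to 65 fragments per library. FOSL1 went from 48.4 ± 2.33 to 78.6 ± 8.03 FPKM and MYC from 42.2 ± 0.882 to 53.3 ± 1.12 FPKM (limma adjusted p = 0.000427 and 0.00204). The calls of ELF3, FOSL1, JUN, MYC and RARG held in every fit with 1 library left out. The VDR call was lost in 5 of 6 such fits, all but that without knockdown library 3 (adjusted p up to 0.165), and the RARA call in 4, those without control libraries 1, 2 and 3 and knockdown library 2 (up to 0.172). The ESRP2 call was lost in 3, without control libraries 2 and 3 and knockdown library 2 (up to 0.122), and the SNAI1 call without knockdown library 2 (0.0537). With no filter all 4 were lost (0.0579 to 0.101), and VDR (0.0675) and ESRP2 (0.0762) also with quantile normalization. No relation between these factors and the keratin levels was tested.

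**Figure D4:**
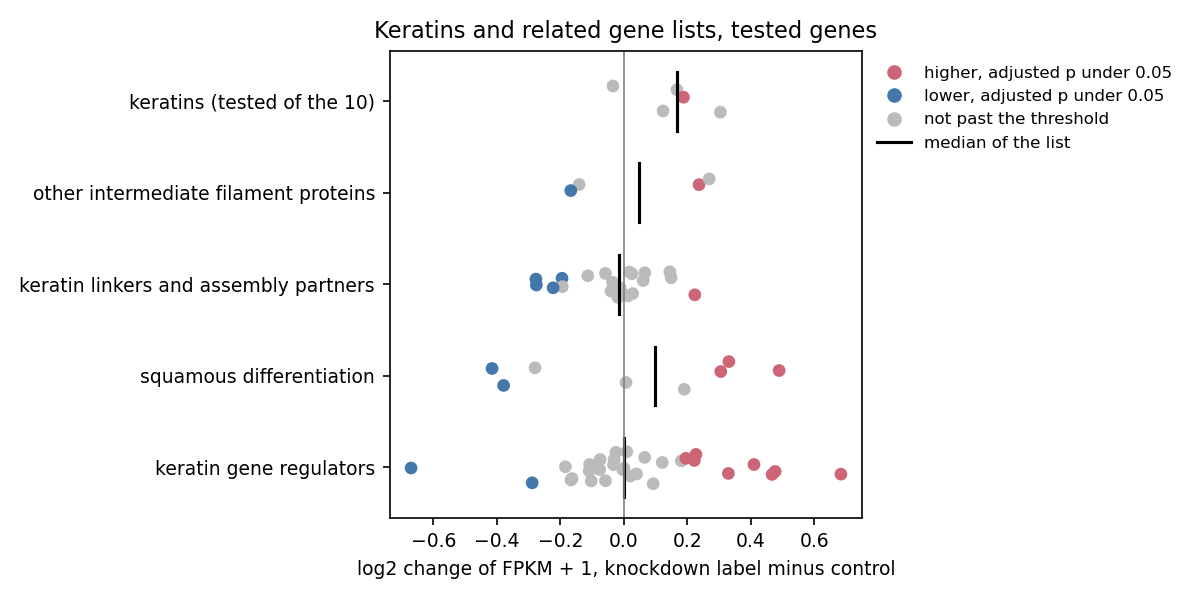
Log2 change of FPKM + 1, libraries labelled knockdown minus control, of each tested gene of the 10 keratins and of 4 related lists; colours mark genes past the adjusted threshold and bars the list medians. The tested keratins lie between -0.03 and 0.30, while genes past the threshold lie on both sides of 0 in each of the other 4 lists.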

How the data were processed

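RNA of 3 control and 3 SRSF3 knockdown samples was sequenced. The authors deposited FPKM per gene symbol in an mRNA and a lncRNA table, per the file headers; the lncRNA table was used only for KRT7-AS. Tools listed without role or version, per the submitters' processing notes, were edgeR, Cuffdiff, StringTie and HISAT2. Build, annotation and strand use in counting were not given in the sources used here; coordinates are therefore left out. Per the labels' protocols, mRNA was selected with poly-T beads and a stranded library with rRNA depletion was made for lncRNA; which gave the mRNA table is not stated.

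Dividing out 1 total per library and 1 length per gene left whole fragment numbers, within 0.003, for 14776 of 14803 rows above 0 in at least 3 libraries (99.8%), all 10 keratins included. At these depths 1 FPKM is 24.6 to 27.4 fragments per kilobase.

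The mRNA table was tested with limma 3.58.1 in R 4.3.3 (two-sided, trended eBayes, Benjamini-Hochberg adjustment over all tested rows) on log2(FPKM + 1), where the mean reached 0.5 FPKM, without rescaling; fold changes on this scale understate those of low genes. Of 10823 tested rows 1179 were higher and 640 lower (64.8% higher), against 817 and 808 (50.3%) with quantile normalization. Scripts were tested on simulated data. Single values were compared by an exact permutation test (scipy 1.17.1).

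The 10 keratins, SRSF3, other keratins whose mean reached 1 FPKM and the 4 genes of smallest p per list were to be named. KRT14, KRT83, KRT86, STUB1, SPRR3, ESRP1, ESRP2, RARA, RARG, SNAI1 and VDR were outside this rule and were added after their values were seen. Members and lists were chosen with earlier results of these data known.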

Additional observations from a re-analysis of the deposited data

How the results depend on the processing

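Limits first: precision of the 5 near-silent keratins is set by their few fragments, and that of the abundant ones by the spread between 3 libraries, above all knockdown library 1. The count of changed genes over the mRNA table, 1819, was 960 with no filter, ran from 643 to 2742 with 1 library left out, and stayed within 1.5 times under the other alternatives. The count of changed keratins, 1, was 0 with no filter, median scaling and quantile normalization, 2 with limma voom on recovered fragments, and ran from 0 to 3 with 1 library left out (0 without control libraries 2 and 3 and knockdown libraries 1 and 2, 3 without knockdown library 3). Under a pseudocount of 0.1, a mean of at least 5 FPKM, robust empirical Bayes and without control library 1 it stayed 1. With 1 library left out, the log2 difference of the summed type I level ran from 0.11 to 0.32. That of the summed type II level ran from 0.06 to 0.18, and that of the ratio of KRT18 to KRT8 from 0.11 to 0.22. In the other alternative run the 2 sums gave 0.23 and 0.12. For these 3 values, leaving out a library was added after the data had been seen. No call among the named genes reversed.

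With the replicate number as a block, 2323 genes and 3 keratins (KRT17, KRT18 and KRT80) passed. The labels do not say that a number marks a shared culture or day, and deviations of same-numbered libraries correlated at 0.0776, 0.0385 and 0.279. Control libraries 2 and 3 correlated best with the knockdown library of their own number, and control library 1 with knockdown library 2 (0.153). Whether the numbers mark shared cultures or days cannot be told from this, and they were treated as numbers only.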
